A study of Caenorhabditis elegans with 6 samples.

Results

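The enzymes that modify, trim and cross-link cuticle collagens were followed in young-adult Caenorhabditis elegans worms lacking the microRNA miR-243. The set held 9 genes of the 19441 genes on the array: the prolyl 4-hydroxylase genes dpy-18, phy-2, phy-3 and pdi-2, the protease gene bli-4, and the cross-linking genes bli-3, mlt-7, tsp-15 and doxa-1. They were chosen by function, but with earlier results of these data known. Their probes were found by the sequence names printed on the array. These 9 genes had 13 probes. The mir-243 worms carried the deletion allele n4759 of mir-243, and the other group was the wild-type Bristol strain N2. Both were whole young-adult worms, with no treatment named for either. The cDNA of a mutant and an N2 sample was hybridised together to an Agilent whole-genome array, once with the mutant in Cy5 and once with the mutant in Cy3. There were 3 biological replicates and 6 arrays, and the 2 arrays of a replicate were averaged, so that n was 3 throughout.

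The worm cuticle is an extracellular matrix made largely of collagens that the epidermis secretes anew before each molt. In the endoplasmic reticulum, prolyl 4-hydroxylases convert prolines of the procollagen chains to hydroxyproline, which stabilises the triple helix. A proprotein convertase then cuts the chains near their amino terminus. After secretion, a dual oxidase supplies hydrogen peroxide and a haem peroxidase uses it to join tyrosines of neighbouring chains. Loss of these enzymes gives worms that are short and fat (Dpy), blistered (Bli) or defective in molting (Mlt), as several of the gene names record.

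The arrays allowed close comparison. Gene spots had a median Cy5 signal of 370 to 647 units where the background was 133 to 136.5, and a median Cy3 signal of 237 to 318 units where it was 59 to 64. Log2 ratios over all tested probes had r of 0.987 to 0.99 when replicates were compared, and of 0.956 to 0.961 when the swapped arrays of 1 replicate were. These correlations are across probes, which are not independent replicates. The median SD of a tested probe over the 3 replicates was 0.0682 on the log2 scale. Of the array's genes, Y47H10A.5, the known source of small interfering RNAs triggered by miR-243, was higher in the mutant (log2 ratio 1.07, SD 0.123, n = 3). None of the gene probes analysed was named for mir-243, so the deletion itself was not measured.

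All 13 probes were well above background on all 6 arrays in both genotypes, and none was saturated on any array. The filter on dim probes therefore removed none of them. For 11 probes of 8 genes a value was present in all 3 replicates and a test could be made. The only probe of phy-2 and one of the 2 probes of pdi-2 lacked a value in 1 replicate, because both of their spots on 1 array were marked as outliers by the scanner software. A probe was called when it differed by at least 2-fold with a limma adjusted p under 0.05. By this rule 3 probes were called higher in the mutant (dpy-18, pdi-2 and mlt-7), which was 27.3% of the 11 tested, against 9.17% of all 16272 tested probes. None of the 11 was called lower, against 7.09% of all tested probes. With the adjusted p alone, 9 of the 11 were higher (81.8%) and 1 was lower (9.09%). Over all tested probes 42.3% were higher and 41.3% lower by that rule, so passing the p threshold by itself was common on these arrays and the fold is given beside each p. The median log2 ratio of the 11 probes was 0.55, and that of all tested probes was -0.00811.

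**Figure D1:**
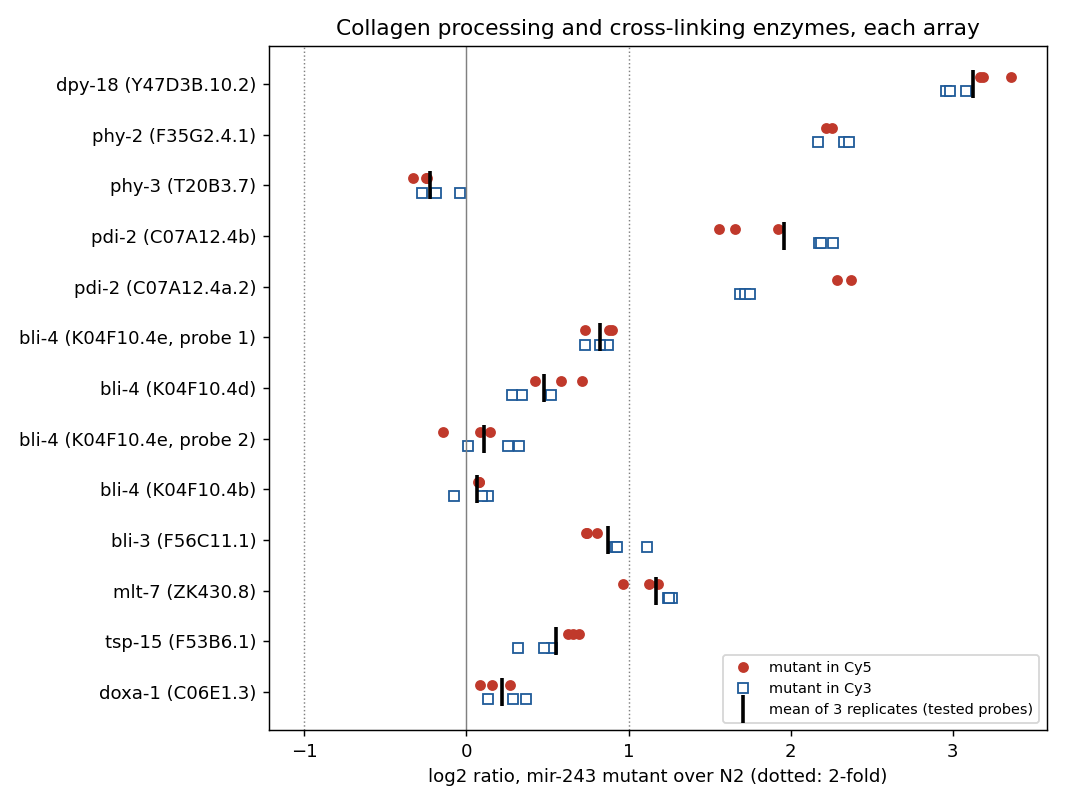
Log2 ratio of mir-243 over N2 (x axis) for each of the 13 probes (rows, with the sequence name on the array) on each array. Filled circles are arrays with the mutant in Cy5, open squares arrays with the mutant in Cy3, and the black bar is the mean of the 3 replicates for the 11 tested probes. The dpy-18, phy-2 and pdi-2 points all lie to the right of the 2-fold line, whereas phy-3 lies left of 0 on all 6 arrays and the 4 bli-4 probes are spread between 0.06 and 0.82 in their means.

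The prolyl 4-hydroxylase subunits of the cuticle showed the largest differences of the set. DPY-18 is a catalytic alpha subunit that acts in the epidermis. The dpy-18 probe (gene Y47D3B.10) had normalised intensities of 61220, 69570 and 58750 in mir-243 worms of replicates 1 to 3, against 6565, 8313 and 6929 in N2 worms. Every mutant value stood far above every N2 value. The log2 ratio was 3.22, 3.06 and 3.08 in the replicates, with a mean of 3.12 ± 0.0852 (SD, n = 3), an 8.71-fold difference (limma adjusted p = 5.26e-15). A ratio this high or higher was found for 0.461% of all tested probes.

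PHY-2 is the other catalytic alpha subunit of the cuticle enzyme, and worms lacking both DPY-18 and PHY-2 do not complete embryogenesis. The phy-2 probe (F35G2.4.1) had intensities of 9274 and 7867 in mir-243 worms of replicates 1 and 3, against 1918 and 1590 in N2 worms. The 2 genotypes did not overlap. The log2 ratio was 2.27 in replicate 1 and 2.31 in replicate 3. In replicate 2, the array with the mutant in Cy3 gave 2.17, and on the other array both spots were marked as outliers, with uncorrected signals of 11537 and 7523 units in the mutant channel against 1722 and 1364 units in the N2 channel. The marked spots thus had the same direction as the unmarked ones. Of the 12 spots of this probe 5 were marked in all. The arrays of replicate 1, and the replicate 2 array with the mutant in Cy3, each rested on a single unmarked spot. No test was made in the main analysis. With marked spots kept, the log2 ratio was 2.21 ± 0.0942 (SD, n = 3), a 4.63-fold difference (limma adjusted p = 5.31e-13).

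PDI-2 is a protein disulphide isomerase that also serves as the beta subunit of the prolyl 4-hydroxylase complex. Its probe named C07A12.4b had intensities of 17690, 19690 and 17750 in mir-243 worms, against 4701, 4762 and 4682 in N2 worms. The N2 values of the 3 replicates were nearly equal, and the mutant values were all far above them. The log2 ratio was 1.96 ± 0.0755 (SD, n = 3), a 3.89-fold difference (limma adjusted p = 2.02e-13), and 2.42% of all tested probes reached this ratio. The probe named C07A12.4a.2 had 63520 and 65700 units in mir-243 worms of replicates 1 and 2, against 16000 and 15920 units in N2 worms. Its log2 ratios of 1.99 and 2.05 lay close to those of the first probe, 1.91 and 2.05 in the same replicates. It had no complete value in replicate 3, where the array with the mutant in Cy3 gave 1.75. In that orientation replicates 1 and 2 gave 1.69 and 1.72. With marked spots kept the ratio of this probe averaged 2.04 ± 0.0507 log2 units (SD, n = 3; adjusted p = 4.81e-13 by limma).

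PHY-3 is a prolyl 4-hydroxylase known from the spermatheca and from embryos rather than from the cuticle. The phy-3 probe (T20B3.7) had intensities of 203, 237.2 and 207.9 in mir-243 worms, against 231, 284.2 and 242.1 in N2 worms. The ranges of the genotypes overlapped, because replicate 2 was brighter in both, but the mutant was lower within each replicate and on 6 of 6 arrays. The log2 ratio was -0.22 ± 0.0374 (SD, n = 3), a ratio of 0.857 (limma adjusted p = 3e-04). It did not reach the 2-fold criterion, and with each array centred on its median in place of loess it was -0.0796 (limma adjusted p = 0.234). The log2 ratio of dpy-18 exceeded that of phy-3 by 3.41, 3.33 and 3.3 in replicates 1 to 3, so the hydroxylase genes differed among themselves by far more than the replicates did. For such differences, and for any single probe, the exact two-sided sign-flip permutation test over 3 replicates cannot give a p below 0.25, and that was its value for this difference.

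**Figure D2:**
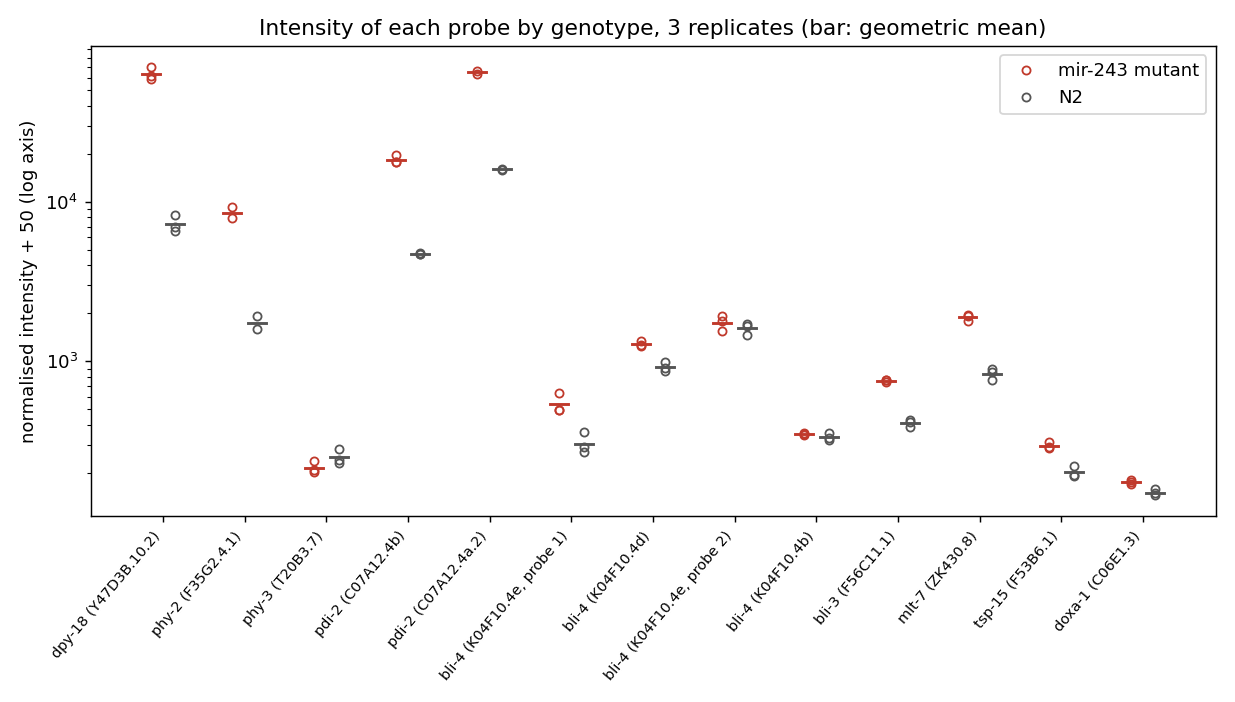
Normalised intensity, including the offset of 50 (y axis, log scale), of each probe in mir-243 worms (red, left) and N2 worms (grey, right). Open circles are replicates (2 for the phy-2 probe and for the C07A12.4a.2 probe of pdi-2) and bars their geometric means. The dpy-18 circles lie between 58750 and 69570 in mir-243 worms and between 6565 and 8313 in N2 worms, whereas those of phy-3 overlap.

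BLI-4 is a subtilisin-like proprotein convertase, required for a normal cuticle and thought to cut the amino-terminal propeptide of procollagens. The gene makes several isoforms, and its 4 probes gave different ratios. A first probe named K04F10.4e had intensities of 498.4, 631.1 and 497.9 in mir-243 worms, against 271.4, 358.8 and 290.1 in N2 worms. Its log2 ratio of 0.82 ± 0.0493 (SD, n = 3) was a 1.77-fold difference (limma adjusted p = 6.72e-10), below the 2-fold criterion. The scanner software's processed signals placed the same probe just past that criterion, at 1.03.

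The probe named K04F10.4d had 1250, 1261 and 1343 units in mir-243 worms, against 866.1, 988.2 and 914.8 units in N2 worms. These ranges did not overlap either, and the log2 ratio was 0.48 ± 0.11 (SD, n = 3), a 1.39-fold difference (limma adjusted p = 7.24e-07). The remaining bli-4 probes hardly separated the genotypes. The second probe named K04F10.4e had 1550, 1779 and 1927 units in mir-243 worms, against 1472, 1673 and 1715 units in N2 worms, a log2 difference of 0.11 ± 0.0506 (SD, n = 3; adjusted p = 0.0306 by limma) that was positive on 5 of 6 arrays. The ranges overlapped, and median centring turned its direction, to -0.0987. The probe named K04F10.4b had 345.6, 357.3 and 352 units in mir-243 worms, against 322.4, 357.3 and 331.5 units in N2 worms. In replicate 2 the genotypes were equal, and the log2 ratio of 0.06 ± 0.0542 (SD, n = 3) did not pass the test (limma adjusted p = 0.198). With median centring it was 0.23 (limma adjusted p = 0.00126), still far from 2-fold.

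The bli-4 probes differed from each other beyond their replicate spread. The first K04F10.4e probe exceeded the second, which carries the same sequence name, by 0.802, 0.726 and 0.611 log2 units in replicates 1 to 3, and it exceeded the K04F10.4b probe by 0.777, 0.815 and 0.693. The second K04F10.4e probe and the K04F10.4b probe differed by -0.0256, 0.0884 and 0.0821, so these did not keep an order. Which exons each probe covers was not given in the sources used here. In the RefSeq gene table bli-4 overlaps rde-3, which encodes a nucleotidyltransferase of the RNA interference machinery. The 2 probes of rde-3 were called lower, with log2 ratios of -1.41 ± 0.0711 and -1.42 ± 0.0702 (SD, n = 3).

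The cross-linking genes had smaller ratios than the hydroxylase subunits of the cuticle. MLT-7 is a haem peroxidase that acts with the dual oxidase on cuticle proteins. The mlt-7 probe (ZK430.8) had intensities of 1789, 1920 and 1957 in mir-243 worms, against 765.5, 893.3 and 859 in N2 worms. The genotypes were well apart, and the log2 ratio of 1.17 ± 0.0619 (SD, n = 3) was a 2.25-fold difference (limma adjusted p = 2.49e-11). Ratios of this size or above were seen for 6.76% of all tested probes.

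BLI-3 is the dual oxidase that supplies hydrogen peroxide for tyrosine cross-links. The bli-3 probe (F56C11.1) had 764.9, 760.9 and 740.7 units in mir-243 worms, against 430.3, 416.7 and 388.6 units in N2 worms. No value of the mutant came near those of N2. The log2 ratio was 0.88 ± 0.0508 (SD, n = 3), a 1.84-fold difference (limma adjusted p = 3.63e-10), short of the 2-fold criterion under all 15 alternative settings, where it ranged from 0.764 to 0.996.

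TSP-15 is a tetraspanin and DOXA-1 a dual oxidase maturation factor, and both are known to form a complex with BLI-3. The tsp-15 probe (F53B6.1) had 287.4, 314.3 and 290 units in mir-243 worms, against 192.4, 221.6 and 195.6 units in N2 worms, giving 0.55 ± 0.0406 log2 units (SD, n = 3), or 1.46-fold (adjusted p = 4.09e-08 by limma). The doxa-1 probe (C06E1.3) had 170.3, 181.3 and 174.6 units in mir-243 worms, against 145.9, 157.8 and 149.2 units in N2 worms, giving 0.22 ± 0.0144 log2 units (SD, n = 3), or 1.16-fold (adjusted p = 0.000318 by limma). Both were higher in the mutant in each replicate without overlap, and neither reached 2-fold. The offset of 50 is a large part of signals this dim and draws their ratios towards 0. With an offset of 10 the log2 ratio of doxa-1 was 0.29.

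Within the dual oxidase complex the 3 genes kept one order. The log2 ratio of bli-3 exceeded that of tsp-15 by 0.25, 0.365 and 0.363 in replicates 1 to 3, and that of tsp-15 exceeded that of doxa-1 by 0.356, 0.304 and 0.341. The mlt-7 ratio exceeded that of bli-3 by 0.395, 0.235 and 0.257. Over the 11 tested probes the order from highest to lowest was dpy-18, pdi-2, mlt-7, bli-3, the first K04F10.4e probe of bli-4, tsp-15, the K04F10.4d probe, doxa-1, the second K04F10.4e probe, the K04F10.4b probe and phy-3. Replicate values of neighbours overlapped for bli-3 and the first K04F10.4e probe, for tsp-15 and the K04F10.4d probe, and for the second K04F10.4e probe and the K04F10.4b probe. The other neighbours in this order did not overlap.

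**Figure D3:**
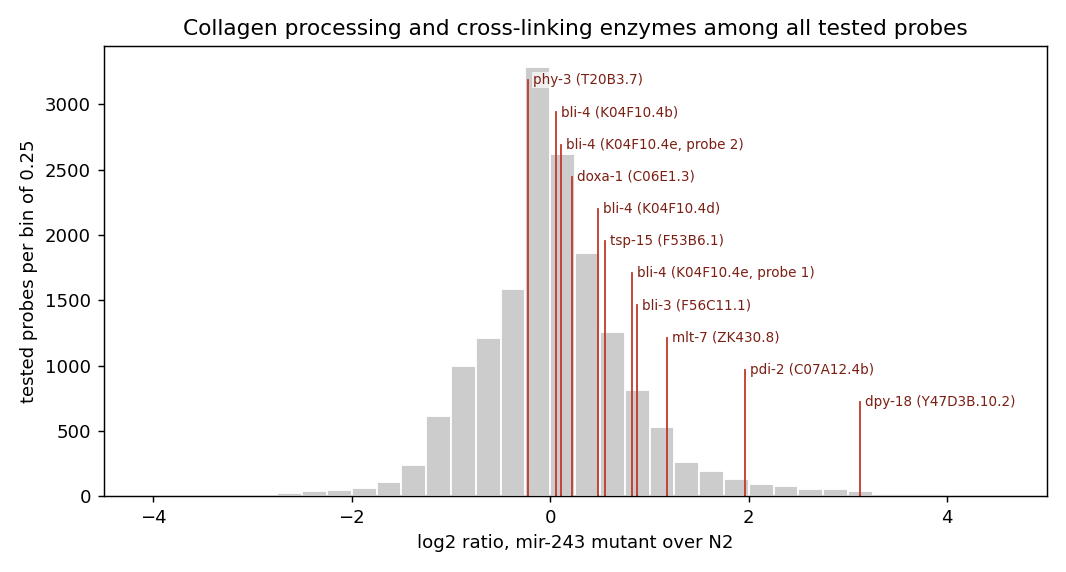
Histogram of the log2 ratio of mir-243 over N2 for the 16272 tested probes (bins of 0.25; y axis, probes per bin), with a red line at the mean ratio of each of the 11 tested enzyme probes. The lines run from -0.22 for phy-3 through 0.22 for doxa-1 and 1.17 for mlt-7 to 3.12 for dpy-18, which lies in the thin upper tail.

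The dye orientation moved several of these ratios. For 5 of the 11 tested probes the 3 arrays with the mutant in Cy5 did not overlap the 3 arrays with the mutant in Cy3. Of these, dpy-18 and tsp-15 were higher with the mutant in Cy5, at 3.17 to 3.36 against 2.96 to 3.08 for dpy-18. The C07A12.4b probe of pdi-2, mlt-7 and bli-3 were higher with the mutant in Cy3, at 2.17 to 2.26 for the pdi-2 probe against 1.56 to 1.92 with the mutant in Cy5. The untested C07A12.4a.2 probe of pdi-2 went the other way, at 1.69 to 1.75 with the mutant in Cy3 against 2.29 and 2.37 with the mutant in Cy5. Each replicate holds both orientations equally, so that a dye effect cancels in its mean.

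Related genes were then counted to see where the enzymes stand among them. The shares to set beside these counts are the 9.17% of all tested probes called higher and the 7.09% called lower. Of 8 tested probes for other collagen-modifying and procollagen-processing enzymes, 6 were called higher and none lower, with a median log2 ratio of 1.47. The astacin protease genes nas-6 and nas-7 rose by 2.06 and 1.85, and dpy-11, which encodes a membrane thioredoxin needed for body shape, rose by 1.78. The other called genes of this list were dpy-31 at 1.61, nas-36 at 1.33 and nas-37 at 1.04. Under the alternative settings 5 to 6 probes were called. Whether nas-6, nas-7, nas-36 and nas-37 act on collagens was not tested here. The gene with the opposite sign was phy-4, a further prolyl 4-hydroxylase, at -0.04 ± 0.106 (SD, n = 3; adjusted p = 0.48 by limma). Like phy-3, phy-4 thus stood apart from dpy-18 and phy-2.

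For other disulphide isomerases and folding factors of the endoplasmic reticulum, 6 of 12 tested probes were called higher and none lower, with a median of 0.946. From the arrays that held the mutant in Cy3 alone, 4 probes were called. All 12 were higher by the adjusted p alone, against 42.3% of all tested probes by that rule. The smallest ratio among them, that of cnx-1, was 0.12 and was positive on 3 of 6 arrays. The gene for the DnaJ protein DNJ-27 rose by 2.06, the disulphide isomerase gene pdi-6 by 1.64 and the BiP chaperone gene hsp-3 by 1.42. The log2 ratio of pdi-2 exceeded that of pdi-6 by 0.194, 0.397 and 0.358 in the 3 replicates, that of pdi-3 by 0.877, 1.04 and 0.9, and that of pdi-1 by 1.2, 1.44 and 1.22. The 2 last genes were chosen for this comparison after their values had been seen.

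None of 4 tested probes for other proprotein convertases was called. The neuropeptide convertase gene egl-3 had log2 ratios of 0.97 and 0.36 at its 2 probes, the furin-like gene kpc-1 had 0.36, and aex-5 had -0.11. The first egl-3 probe lay close to 2-fold and was called higher, at 1.02 and 1.01, with the mutant in Cy3 only and without replicate 1. Of 6 tested probes for other dual oxidase and haem peroxidase genes, 2 were called higher and 1 lower, with a median of 0.717. The peroxidase gene skpo-2 rose by 1.49 and the peroxidasin gene pxn-2 by 1.06, whereas skpo-1 fell by 2.24 on the log2 scale. The call of pxn-2 was lost, at 0.913 to 0.974, without background correction, with normexp fitted on all spots and with the mutant in Cy5 only. The log2 ratio of mlt-7 exceeded that of skpo-1 by 3.57, 3.28 and 3.38 in the replicates and was below that of skpo-2, the difference being -0.356, -0.21 and -0.378. The paralog of bli-3, duox-2, was looked up after its value was known. Its log2 ratio was 0.63 ± 0.134 (SD, n = 3), and bli-3 exceeded it by 0.0976, 0.39 and 0.247 in the 3 replicates.

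Among other tetraspanins, 3 of 18 tested probes were called higher and none lower, with a median of 0.259. Both tsp-14 probes were called, at 2.42 and 1.06, and tsp-7 at 1.46. The log2 ratios of tsp-12 (-0.87), tsp-10 (-0.58) and tsp-11 (-0.10) had the opposite sign. The second tsp-14 probe lost its call, at 0.89 and 0.94, without background correction and with normexp fitted on all spots, and with median centring tsp-12 was called lower at -1.17. The tsp-15 ratio was below both tsp-14 probes in each replicate.

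The collagens on which these enzymes act were counted as well. Of 17 tested probes for cuticle collagen genes, 15 were called higher and 1 lower, with a median log2 ratio of 3.00. The genes dpy-2, dpy-7 and dpy-10, which encode collagens of the annular furrows, rose by 4.47, 4.12 and 3.81 (3.80 at a second dpy-10 probe). Lower were col-19, a collagen made in adults, at -1.28, and dpy-14 at -0.54, which did not reach 2-fold but was -1.04 and called with the deposited log2 ratios. For 6 further collagen genes no test was made for want of a replicate value, and their available replicate values were 2.67 to 3.96. Of the 11 tested enzyme probes, dpy-18 alone had a ratio in the range of the cuticle collagens that were called higher. Its log2 ratio exceeded that of the collagen gene sqt-3 by 0.591, 0.309 and 0.533, and was below that of rol-6, with differences of -0.199, -0.307 and -0.381 in replicates 1 to 3. Both collagens were picked after their values had been seen. The collagens of basement membranes, which tissues other than the epidermis also make, were counted beside them. None of 4 probes was called, with log2 ratios of 0.33 for let-2, 0.25 for emb-9 and -0.58 and -0.60 for cle-1.

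**Figure D4:**
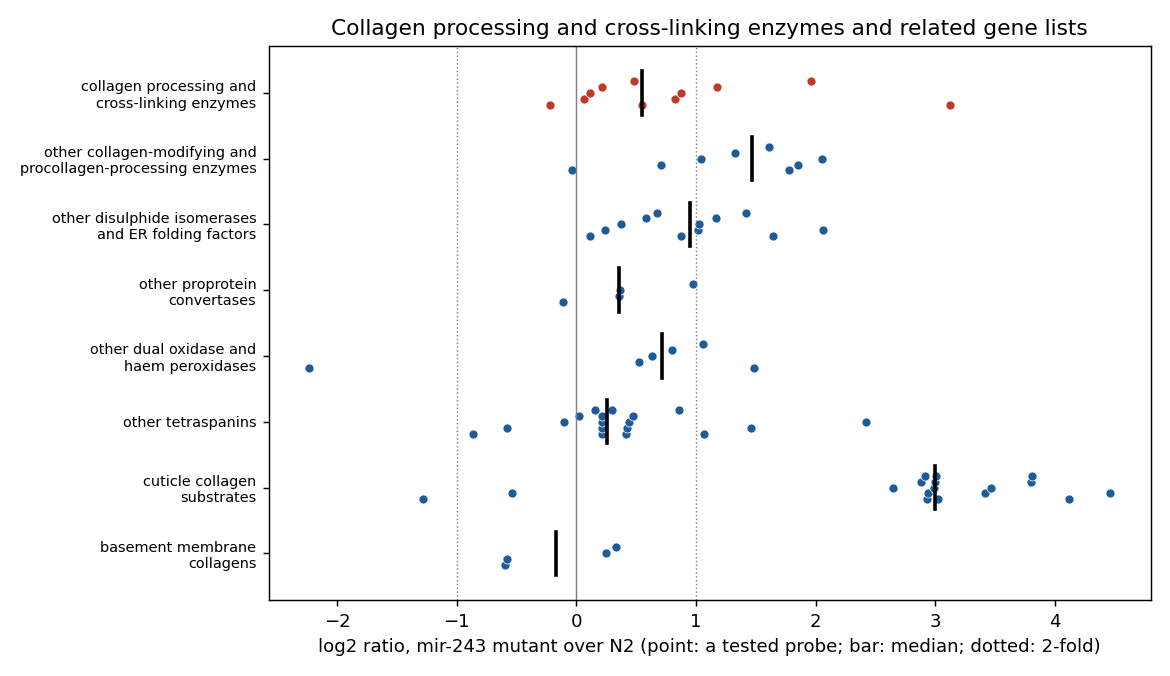
Log2 ratio of mir-243 over N2 (x axis) of each tested probe (points, offset vertically only for legibility) in the enzyme set (red) and in 7 related gene lists (blue), with the median of each list as a black bar. The enzyme set has a median of 0.55, between the cuticle collagens at 3.00 and the basement membrane collagens at -0.168.

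RNA came from whole worms, so that fewer cells of a type and less RNA per cell cannot be told apart. Both groups were named only as young adults, so a difference in exact stage cannot be told apart from the genotype either. Markers of other tissues moved in the same comparison, in which 9.17% of all tested probes were called higher and 7.09% lower. All 9 tested germ line and oocyte probes were lower by the adjusted p alone, against 41.3% of all tested probes by that rule. Of the 9, 7 were called lower, and their median log2 ratio was -1.83. Their summed intensity was 76350 to 79220 in mir-243 worms, against 233600 to 254000 in N2 worms. Of 9 neuron probes 4 were called higher, with a median of 0.831 (0.739 and none called with median centring). The gene unc-119 had the opposite sign at -0.29, and the sum was 50530 to 52230 in mir-243 worms, against 29220 to 30280 in N2 worms. Of 8 epidermis probes 2 were called higher, dpy-7 and che-14, with a median of 0.379, and the sum was 30210 to 31990 in mir-243 worms, against 7458 to 8243 in N2 worms. Most of the sum in mir-243 worms, but not in N2 worms, was dpy-7, which is also in the list of cuticle collagens. It had 20030 to 22550 units in mir-243 worms, against 1102 to 1352 units in N2 worms. The remaining 7 epidermis probes summed to 9400 to 10190 in mir-243 worms, against 6166 to 7141 in N2 worms. The epidermal transcription factor genes, all given here whatever their size, had log2 ratios of 0.75 for elt-3, 0.43 for nhr-25, 0.32 for elt-1, 0.23 for lin-26 and 0.05 and -0.18 for the 2 nhr-23 probes. Intestine, body wall muscle and sperm probes had medians of 0.122, 0.22 and 0.349, with none called higher and 1 intestine probe called lower, that of the esterase gene ges-1 at -1.01, whose call was lost under 4 alternatives. For want of a replicate value no test was made of cpr-1 (intestine), unc-27 (body wall muscle) and puf-5 (germ line and oocyte). Their available replicate values were -2.05 and -1.97 for cpr-1, -0.21 and -0.32 for unc-27 and -1.85 and -2.11 for puf-5. With marked spots kept, 2 intestine probes were called lower. Every tested marker probe was above background on all 6 arrays in both genotypes. The part of these differences in the enzyme ratios was not tested.

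The nearest protein-coding gene on each side of the 9 enzyme genes was looked up in the RefSeq gene order. Of these 18 neighbours, 14 had a tested probe, 6 were called higher and 1 lower. Over all tested probes 9.17% were called higher and 7.09% lower. Beside dpy-18, subs-4 had a log2 ratio of 2.48, and the neighbour on the other side was not called. Beside doxa-1, acdh-6 had 3.27, far above doxa-1 itself. Beside pdi-2, tmyb-1 lay at the 2-fold line with 1.00 and lost its call under 9 of the 15 alternatives. Apart from bli-4 and rde-3, tested probes were present for overlapping genes at phy-3, where the troponin I gene tni-3 had -0.01, and at tsp-15, where madd-4 had 1.03 and lost its call under 4 of them.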

How the data were processed

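Per the file headers, the authors read the 2-colour scans with Agilent Feature Extraction 10.5.1.1, whereas the submitters' processing notes name 8.5.1.1. The deposited values used were the median intensity per spot and its background, with other quality marks of 0 or 1. The deposited log10 ratio of Cy5 over Cy3, the processed intensity of each channel and the log2 ratio of the authors' value table served only for alternatives. A genome build for the probes was not given in the sources used here. RefSeq (WBcel235) was used for names, which matched 19057 of 20401 gene probes, and for gene order.

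Background was corrected with normexp (offset 50) in limma 3.58.1 (R 4.3.3). A few bright backgrounds distorted the fit on all spots (on the replicate 3 array where Cy5 held the mutant, -185 in Cy5 and -326 in Cy3, against 14.7 and 13.7 without outlier spots), so it was made without spots marked as outliers. Ratios were normalised by loess (span 0.3), marked spots were set to missing, spots of a probe were averaged, and ratios were turned to mutant over N2 and averaged over both dye orientations. Probes well above background on at least 4 of 6 arrays in 1 genotype, with 3 replicate values, were tested with lmFit and eBayes (two-sided, Benjamini-Hochberg over 16272 probes). The steps were tried on simulated data in which few probes changed, equally in both directions. That trial does not cover arrays with as many differences as these. Intensities are per genotype after loess and Aquantile, and levels of different probes were not compared. The number of arrays limits the precision.

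The enzymes, gene lists and tissue markers were chosen with earlier results of these data known. All enzyme probes are reported. In related gene lists at most the 3 genes with the largest ratios and those of opposite sign are named, with exceptions stated. Tissue marker lists are given by counts, medians and sums, with the epidermis genes in full and others only as examples. Of 22 differences between ratios computed, those described carry no adjusted p.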

Additional observations from a re-analysis of the deposited data

Results flagged for a closer look

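For the K04F10.4b probe of bli-4, the replicate 2 array where Cy3 held the mutant had a log2 ratio of -0.0779, apart from the other 5 arrays, which lay between 0.0688 and 0.132. The gap was large for 6 arrays by Dixon's criterion. Chance marks about 1 in 20 such groups when the 6 values are independent. These were dye-swapped pairs from 3 replicates, so that rate is only a guide here. This was the only one marked among the 11 tested enzyme probes. Without replicate 2 the log2 ratio of this probe was 0.09 (limma adjusted p = 0.121), against 0.06 with all replicates, so it was not called either way.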

How the results depend on the processing

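The 3 called enzyme genes, dpy-18, pdi-2 and mlt-7, stayed called under all 15 alternatives, and 10 of the 11 tested enzyme probes kept their direction. The exception was the second K04F10.4e probe of bli-4, at -0.0987 with median centring (limma adjusted p = 0.151). Of related genes, phy-4 turned to 0.127 with median centring, 0.0495 with the mutant in Cy5 only and -0.0884 to 0.0171 with single replicates left out (positive without replicate 3), aex-5 to 0.0298 with the mutant in Cy5 only, and tsp-11 to 0.0400 with median centring. One nhr-23 probe turned to -0.0739 with median centring, -0.017 with processed signals and -0.016 with the deposited ratios, and tni-3 to 0.0347 with the mutant in Cy3 only, to 0.0118 with the slide as a block and to between -0.0484 and 0.0346 with single replicates left out (positive without replicate 1). The calls of the first bli-4 probe, egl-3, pxn-2, tsp-14, tsp-12, dpy-14, ges-1, tmyb-1, ptr-11 and madd-4 changed under at least 1 alternative.

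The count of enzyme genes called higher was 5 with the deposited log2 ratios, which added phy-2 and bli-4. With the adjusted p alone it was 7, and 42.3% of all tested probes were higher by that rule. The median log2 ratio of the enzyme probes was 0.442 without background correction and 0.942 with the deposited ratios, which give all 13 probes a value. The count of enzyme probes called higher was 6 with the deposited ratios, and 5 both with marked spots kept and with the mutant in Cy3 only, since these give values to phy-2 and to the second pdi-2 probe. Leaving out single replicates gave 3 to 4 called enzyme genes and 3 to 4 probes. Probes called lower over the whole array numbered 1153, but 2214 when the processed signals were used and 2321 when the authors' log2 ratios were. Of all calls 56.4% were higher in the main analysis, against 49% and 48.6% with these alternatives. More probes were thus called higher with them too, and 9.17% is not the share to set beside their counts. Replicates 1 and 2 lay on 1 slide and replicate 3 on another, and the slide as a block changed no enzyme call. The p-values rest on 3 samples that the paper calls biological replicates, with no further word on separate cultures. They do not measure the spread of those 3 alone, because limma draws each probe's spread towards that of all tested probes. The SD of doxa-1 was 0.0144 and that of the K04F10.4d probe 0.11, but the standard errors used were 0.0420 and 0.0490. Very small p-values at n = 3 lean on this sharing.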
